A study of Homo sapiens with 45 samples.

Results

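NR0B1, NKX2-2, BCL11B, SOX2, SOX6, PAX7, GLI1, FEZF1, POU3F1 and ID2 are 10 transcription factor genes of the Ewing sarcoma programme. They were listed because each is known as a target of the fusion protein EWS-FLI1 or marks Ewing sarcoma lines, and not by a threshold on these data. All 10 were found among the 41582 genes to which the deposited transcripts could be assigned, and all 10 passed the filter on low counts in each comparison below. The study measured poly(A) RNA in 45 libraries of human cell lines, 39 of them from 13 lines with 3 libraries each. Ewing sarcoma was represented by 7 lines (RDES, TC71, A673, SKES1, MHHES1, EW24, EW3) and osteosarcoma by 6 (U2OS, SAOS2, MG63, KHOS, HOS-MNNG, G292), and the labels name no treatment for these lines. HOS-MNNG and KHOS both derive from the HOS line. The remaining 6 libraries came from A673 cells with sh908, a short hairpin RNA against the potassium channel gene KCNN1 that doxycycline switches on. Of these libraries 3 were made without doxycycline (uninduced) and 3 with it (induced), at a dose and for a time that the available labels leave out. They stand for 1 hairpin in 1 cell line. The labels do not say whether replicates were separate cultures, so a p-value between libraries of A673 measures the spread between these libraries, which may be technical.

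In Ewing sarcoma, a cancer of bone and soft tissue, a chromosome translocation joins EWSR1 to a gene of the ETS family, most often FLI1 and less often ERG. The fusion protein binds the ETS core GGAA and, at many genes that it activates, runs of GGAA repeats that then act as enhancers. Several of its targets are transcription factors themselves: NR0B1 and NKX2-2 are needed for transformed growth in Ewing sarcoma models, and NKX2-2 and PAX7 are used as stains in diagnosis. Osteosarcoma is a bone cancer that lacks this fusion.

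Promoter sequence of 4 members is shown so that its GGAA content can be set beside the RNA levels that follow. FEZF1 and POU3F1 had the largest gaps between the tumour types, NR0B1 was close to absent in 2 Ewing lines, and SOX6 has the single member window with neighbouring GGAA copies. RefSeq promoter sequences (GRCh38.p14) were matched for 9 of the 10 members, in 15 windows of the 250 bases before an annotated start. The NR0B1 stretch is chrX:30309599-30309640, the FEZF1 window chr7:122304751-122305000, the SOX6 window chr11:16356547-16356796 and the POU3F1 stretch chr1:38046795-38047043, all on the minus strand and written 5′ to 3′. The FEZF1 and SOX6 windows lie before starts inside the span of the gene. Capitals mark GGAA and TATAAA on either strand, so TTCC and TTTATA are the same motifs read on the other strand. Bases of the NR0B1 window (208) and of the POU3F1 window (1) that GENCODE places in an untranslated region were left out.
NR0B1: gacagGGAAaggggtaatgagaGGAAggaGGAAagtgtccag
FEZF1: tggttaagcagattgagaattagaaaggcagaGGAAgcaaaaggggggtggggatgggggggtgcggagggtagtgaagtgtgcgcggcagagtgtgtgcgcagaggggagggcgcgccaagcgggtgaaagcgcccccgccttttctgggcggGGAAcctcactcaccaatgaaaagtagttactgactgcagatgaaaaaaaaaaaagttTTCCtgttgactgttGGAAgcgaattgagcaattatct
SOX6: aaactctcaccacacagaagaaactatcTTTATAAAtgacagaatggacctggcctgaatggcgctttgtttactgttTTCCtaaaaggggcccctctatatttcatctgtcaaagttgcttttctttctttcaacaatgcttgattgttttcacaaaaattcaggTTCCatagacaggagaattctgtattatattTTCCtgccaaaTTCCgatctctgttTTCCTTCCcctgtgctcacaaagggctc
POU3F1: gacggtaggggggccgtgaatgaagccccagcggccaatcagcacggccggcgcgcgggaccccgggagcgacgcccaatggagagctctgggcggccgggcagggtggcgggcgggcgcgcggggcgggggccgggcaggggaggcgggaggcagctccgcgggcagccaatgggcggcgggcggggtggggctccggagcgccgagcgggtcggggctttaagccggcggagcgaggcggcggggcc
GGAA stood in 92.7% of all 35116 RefSeq windows of 250 bases, with a median of 3 copies, and 18.6% of windows held 5 or more. The whole NR0B1 window held 5 copies, 3 of them in the stretch shown, and 1 TATAAA. The FEZF1 window shown held 4 copies, the SOX6 window 6 copies and 2 TATAAA that overlap as TTTATAAA, and the ID2 window 4 copies. The other FEZF1 window held 1 copy and the other 4 SOX6 windows 2 or 3. Among the rest, PAX7 had 2 copies, SOX2 had 1, the NKX2-2 windows 0 and 1, and the BCL11B and POU3F1 windows 0. The windows shown for FEZF1 and SOX6 are thus those with the most copies in each gene. Neighbouring copies (GGAAGGAA, in which 2 GGAA are counted) stood in 3.06% of all windows and in 1 of the 15 windows of members, the SOX6 window shown, as TTCCTTCC. TATAAA stood in 10.7% of all windows and in 5 of the 15 windows of members: 1 of NR0B1, 1 of NKX2-2 and 3 of SOX6. These matches describe the letters of the windows, and binding was not measured. GGAA repeats farther than 250 bases before a start lie outside the windows and were not searched, so their absence cannot be read from these counts.

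Library totals ran from 15974173 to 51413254 estimated counts. The tumour types were checked with marker genes on the scale of TPM, a level scaled for transcript length and library depth. Of 7 Ewing markers, 6 or 7 reached 1 TPM in each Ewing line, with a summed level of 1162 to 2982 TPM, against 2 to 4 markers and 139 to 971 TPM in the osteosarcoma lines. By the test described below, 4 of the 7 were called higher in Ewing lines, where 5.99% of all genes were. CD99, FLI1 and ERG were not called. The sums include CD99, which overlapped between the types, at 290 TPM in EW24 and 944 TPM in MG63. EW3 measured 34.8 TPM of ERG and 2.08 TPM of FLI1, whereas FLI1 was 28.7 to 44.6 TPM in the other 6 Ewing lines. FLI1 also reached 27.7 TPM in the osteosarcoma line KHOS. The 9 osteosarcoma markers summed to 132 to 4385 TPM in the osteosarcoma lines and 11.6 to 324 TPM in the Ewing lines, but 4 to 6 of them reached 1 TPM in each line of either type. Of these, SP7, which defines osteoblasts, exceeded 1 TPM in SAOS2 (22.1 TPM) and in none of the other 12 lines, and IBSP stayed below 1 TPM in all 13. In the sh908 cells, replicate 3 stood apart from replicates 1 and 2 with and without doxycycline. Where leaving it out moved a member's call the value without it is given too. Genes at 1 TPM or more numbered 12066, 12019 and 14101 in uninduced replicates 1, 2 and 3. They numbered 11944, 12003 and 13816 in induced ones and 13560, 13600 and 13763 in parental A673. By this count replicate 3 was nearer to parental cells than replicates 1 and 2, and which replicates are the unusual ones was not tested.

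The first comparison asked how the 10 genes differed between the tumour types. POU3F1 and FEZF1, at 20.9 TPM or more in each Ewing line, were below 1 TPM in each osteosarcoma line, and ID2 was present in both types at a higher level in Ewing. 8 of the 10 genes were called higher in the Ewing lines, where 5.99% of all genes were, and 0 were called lower, where 8.46% of all genes were. PAX7 and GLI1 had higher Ewing means and were not called. The lines were the samples, with the counts of the 3 libraries of a line summed, and the edgeR quasi-likelihood test was adjusted over all 21975 genes tested (false discovery rate, FDR, called under 0.05). The median fitted log2 fold change was 5.23 over the 10 members and -0.06 over all genes. In 7 members the TPM of each of the 7 Ewing lines lay above each of the 6 osteosarcoma lines, a pattern seen in 3.19% of all genes. Because the list was drawn up for genes known in Ewing sarcoma, the direction of these differences is not independent evidence.

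**Figure D1:**
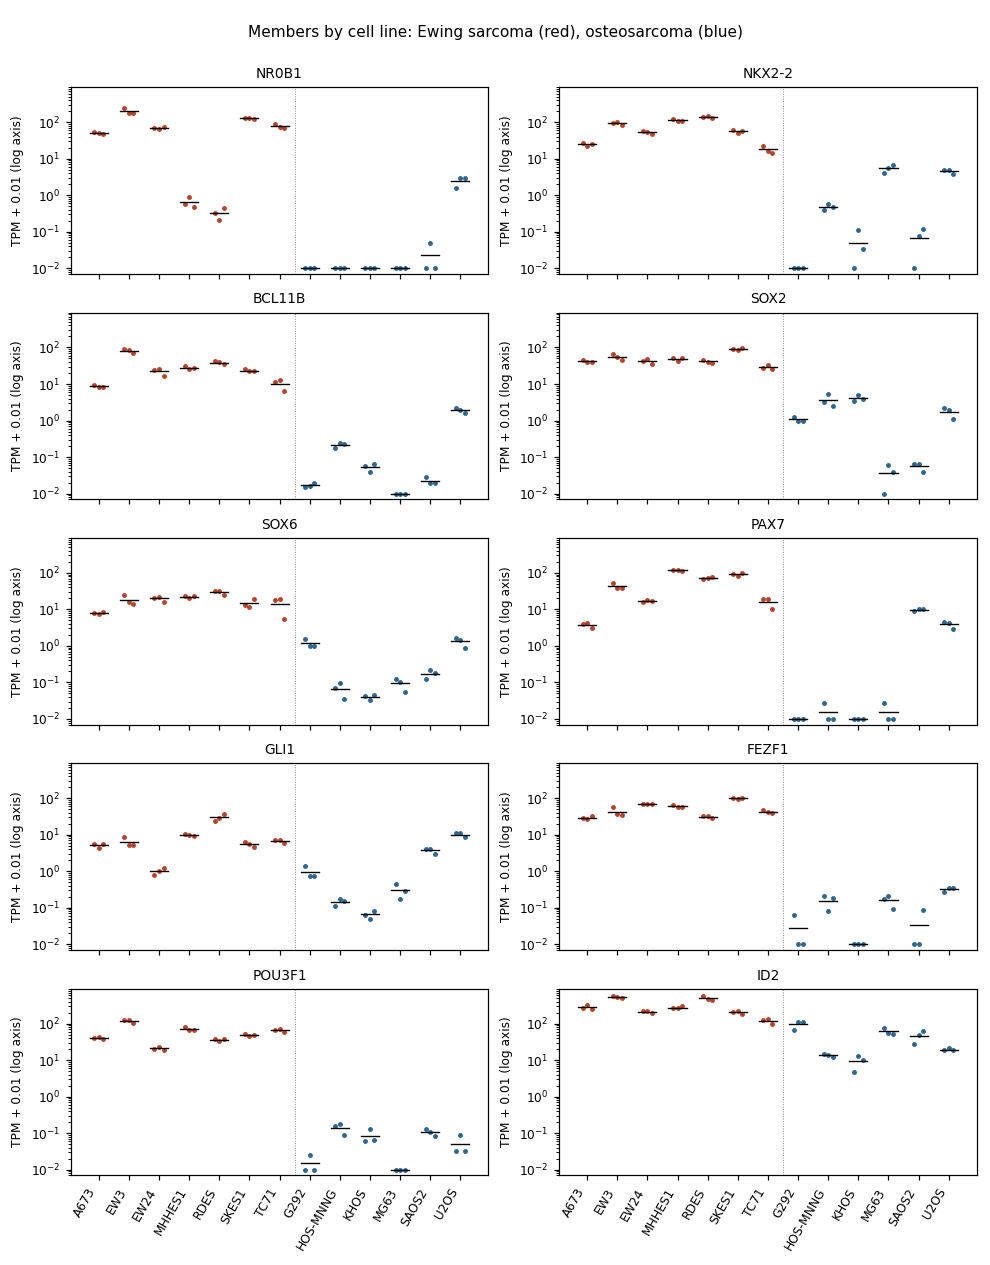
TPM of the 10 genes in each of 13 lines, on a log axis after adding 0.01 TPM, with a point for each of 3 libraries and a bar at their mean. POU3F1 and FEZF1 leave a wide gap between the tumour types, NR0B1 drops below 1 TPM in MHHES1 and RDES, and GLI1, PAX7 and NR0B1 overlap between the types.

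**Figure D2:**
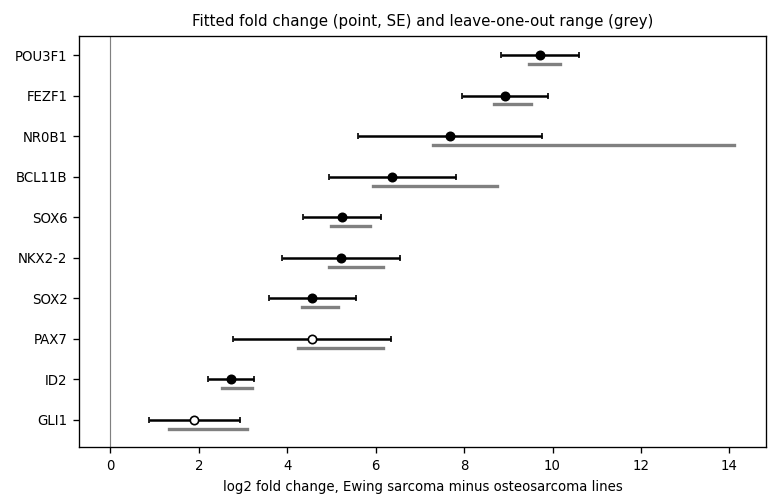
Fitted log2 fold change of each gene, Ewing minus osteosarcoma lines (7 against 6), with its SE as a bar. Filled points were called and open points (PAX7, GLI1) were not. The grey bar is the range when a line or a replicate number is left out, which for NR0B1 reaches 14.11 without U2OS, a fit that rests on 1 count in the other 5 osteosarcoma lines.

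Most members were present in each Ewing line. All 10 were at 1 TPM or more in A673, EW3, SKES1 and TC71, and 9 of 10 in EW24, MHHES1 and RDES. EW3 was the highest Ewing line for 4 members, RDES for 3, SKES1 for 2 and MHHES1 for 1. A673, here the parental libraries without sh908, was the lowest Ewing line for 4 members, TC71 for 3, EW24 for 2 and RDES for 1. The 10 levels summed to 401 TPM (TC71) to 1179 TPM (EW3) in the Ewing lines. Among the osteosarcoma lines 2 or 3 members reached 1 TPM in 5 lines, and 8 did in U2OS, which was also the highest osteosarcoma line for 5 members. A member had a count of 0 in all 3 libraries of a line in 10 cases, all in osteosarcoma lines. A count of 0 there allows up to 3 counts, or 0.0259 to 0.0485 CPM (counts scaled to depth), for counting error only. In bulk RNA, fewer cells with a transcript and less of it per cell cannot be told apart.

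NR0B1 (gene ID 190, chrX:30304206-30309390), also called DAX1, encodes an orphan nuclear receptor that represses steroid-making genes in the adrenal and gonad and is among the best known EWS-FLI1 targets. It was present at a high level in 5 of the 7 Ewing lines and close to absent in the other 2. Its 7 Ewing line means had a lowest value of 0.316 TPM (RDES), a median of 69.1 TPM (EW24) and a highest value of 196 TPM (EW3). SKES1 (128 ± 2.76 TPM, SD, n = 3 libraries, as for the line values below) was separate from its neighbours, and TC71 (78.0 ± 9.64 TPM) overlapped EW24. The EW3 libraries measured 237, 175 and 176 TPM, and A673, the lowest of the 5 high lines, 55.3, 50.5 and 47.1 TPM. MHHES1 measured 0.576, 0.901 and 0.475 TPM and RDES 0.315, 0.204 and 0.431 TPM. These lines were thus at 0.871% and 0.423% of the mean over the Ewing lines. The osteosarcoma line U2OS, at 1.56, 2.91 and 2.88 TPM, lay above both in each library, and the other 5 osteosarcoma lines had 1 count in 15 libraries. The log2 fold change was 7.68 (SE 2.09, edgeR FDR 0.0269, n = 7 and 6 lines). U2OS supplied 179 of the 180 osteosarcoma counts, so the size of a fitted fold change without it rests on 1 count. Between the Ewing lines the SD of the log2 level was 2.99, the widest of the 10 members, against 0.15 within a line.

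NKX2-2 (gene ID 4821, chr20:21511017-21522689) encodes a homeobox factor of the ventral neural tube and of pancreatic islets. It was present in each Ewing line, with means from 17.9 TPM (TC71) through a median of 56.0 TPM (SKES1) to 139 TPM (RDES). Next to RDES stood MHHES1 (112 ± 7.98 TPM) and EW3 (91.9 ± 6.11 TPM), and near TC71 stood A673 (24.7 ± 1.80 TPM). The library ranges of SKES1 and EW24 (52.9 ± 4.58 TPM) overlapped, as did those of A673 and TC71, and the other neighbours in the order of Ewing lines did not. In osteosarcoma the gene measured 5.55 ± 1.34 TPM in MG63 and 4.55 ± 0.616 TPM in U2OS, and those 2 lines overlapped. It was 0.465 ± 0.0928 TPM in HOS-MNNG, 0.0582 ± 0.0541 TPM in SAOS2 and 0.0404 ± 0.0513 TPM in KHOS, and had a count of 0 in G292. By edgeR the log2 fold change was 5.22 (SE 1.34, FDR 0.0203), against 7.96 by limma voom (adjusted p 0.00106), and the lowest Ewing line was 3.22-fold above the highest osteosarcoma line.

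BCL11B (gene ID 64919, chr14:99169287-99272197) encodes a zinc finger repressor that recruits the NuRD complex and is needed for T cells and cortical neurons. Its Ewing line means had a lowest value of 8.60 TPM (A673), a median of 23.4 TPM (SKES1) and a highest value of 81.7 TPM (EW3). EW3 stood apart, with 89.1, 84.7 and 71.4 TPM, above each library of RDES, the next line (41.8, 39.1 and 35.1 TPM). Between them and A673 lay 28.02 ± 2.28 TPM in MHHES1, 22.1 ± 4.84 TPM in EW24 and 10.3 ± 3.59 TPM in TC71, and TC71 overlapped A673. In osteosarcoma U2OS stood apart, with 2.15, 1.93 and 1.58 TPM, while HOS-MNNG measured 0.210 ± 0.0348 TPM and the other 4 lines at most 0.0447 TPM. Ewing lines were higher by a log2 fold change of 6.38 (SE 1.44, edgeR FDR 0.0111), and by 8.74 without U2OS.

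SOX2 and SOX6 encode high mobility group box factors. SOX2 keeps stem and neural progenitor cells undifferentiated, and SOX6 works with SOX9 in cartilage. SOX2 (gene ID 6657, chr3:181711925-181714436) varied least between the Ewing lines, with an SD of the log2 level of 0.51. Its lowest line mean was 28.6 TPM (TC71), its median 42.1 TPM (A673) and its highest 92.0 TPM (SKES1). SKES1 and TC71 were separate from their neighbours, and the 5 lines between them overlapped each with the next (56.2 ± 10.2 TPM in EW3, 48.7 ± 5.60 TPM in MHHES1, 41.6 ± 3.51 TPM in RDES and 41.5 ± 6.47 TPM in EW24). In osteosarcoma SOX2 reached 4.10 ± 0.875 TPM in KHOS and 3.64 ± 1.38 TPM in HOS-MNNG, with overlap between these 2 lines of shared origin. It was 1.72 ± 0.541 TPM in U2OS and 1.06 ± 0.164 TPM in G292, and under 0.1 TPM in SAOS2 and MG63. Its log2 fold change was 4.57 (SE 0.99, edgeR FDR 0.00908). SOX6 (gene ID 55553, chr11:15966449-16738477) had its lowest Ewing line mean in A673 (8.02 TPM), a median of 18.1 TPM (EW3) and its highest mean in RDES (29.3 TPM). RDES was separate from MHHES1 below it, and each further neighbour in the order of Ewing lines overlapped (22.001 ± 1.69 TPM in MHHES1, 19.9 ± 3.15 TPM in EW24 and 14.6 ± 3.86 TPM in SKES1). The TC71 libraries were spread, at 18.5, 18.98 and 5.30 TPM. The highest osteosarcoma lines for SOX6 were U2OS (1.32 ± 0.386 TPM) and G292 (1.17 ± 0.312 TPM), and the other 4 measured at most 0.164 TPM (SAOS2). SOX6 had a log2 fold change of 5.24 (SE 0.89, edgeR FDR 0.00240).

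PAX7 (gene ID 5081, chr1:18630846-18748866) encodes the paired box factor of muscle satellite cells and neural crest. Its Ewing line means ran from 3.73 TPM (A673) through a median of 43.3 TPM (EW3) to 118 TPM (MHHES1), a 31.6-fold span. SKES1 (92.9 ± 8.47 TPM) and RDES (72.2 ± 3.18 TPM) were also high, and EW24 (17.3 ± 1.03 TPM) overlapped TC71. Of the osteosarcoma lines SAOS2 measured 9.09, 10.4 and 10.3 TPM and U2OS 4.54, 4.30 and 2.93 TPM, and the other 4 lines had 3 counts between them. A673, at 3.96, 4.12 and 3.11 TPM, lay below SAOS2 in each library and overlapped U2OS, and TC71 (19.8, 18.8 and 10.3 TPM) overlapped SAOS2. The log2 fold change of 4.56 (SE 1.78) was not called by edgeR (FDR 0.105). DESeq2 gave an adjusted p of 0.0250 and limma voom one of 0.00430 with a log2 fold change of 9.48, and without SAOS2 edgeR gave 6.17 (FDR 0.0568).

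GLI1 (gene ID 2735, chr12:57459785-57472268) encodes a zinc finger activator at the end of the hedgehog pathway. In that pathway a ligand (SHH, IHH or DHH) binds the receptor PTCH1, which releases SMO, and GLI factors then switch on targets that include GLI1 and PTCH1 themselves. GLI1 was highest in RDES but was also present in U2OS, so the tumour types overlapped. Its Ewing line means had a lowest value of 0.999 TPM (EW24), a median of 6.44 TPM (EW3) and a highest value of 29.9 TPM (RDES). The RDES libraries measured 24.2, 28.2 and 37.2 TPM, above each library of the other 12 lines. U2OS, at 10.98, 10.8 and 8.55 TPM, was next in the order of all 13 lines and overlapped MHHES1 (10.7, 9.75 and 9.52 TPM). TC71, EW3, SKES1 and A673 overlapped each with the next, at 6.81 ± 0.707 TPM in TC71, 5.43 ± 0.796 TPM in SKES1 and 5.17 ± 0.642 TPM in A673. SAOS2 (3.74 ± 0.672 TPM) lay above EW24 (0.759, 1.01 and 1.23 TPM) in each library. EW24 overlapped G292 (0.962 ± 0.376 TPM), and the level was 0.290 ± 0.135 TPM in MG63, 0.135 ± 0.0335 TPM in HOS-MNNG and 0.0560 ± 0.0165 TPM in KHOS. The log2 fold change of 1.90 (SE 1.02, edgeR FDR 0.237) was not called. It was 3.10 without U2OS (FDR 0.0630) and 1.32 without RDES (FDR 0.436). By limma voom it was 3.17 (adjusted p 0.0622), and voom on 39 libraries with the line as a random effect called it (3.12, adjusted p 0.00690).

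Of 13 other hedgehog pathway genes 11 were tested, and 4 were called higher and 0 lower in the Ewing lines, beside 5.99% and 8.46% of all genes, with a median log2 fold change of 0.48. SMO, the signal transducer, had a log2 fold change of 1.77 (edgeR FDR 0.00809) and GAS1, a co-receptor, one of 3.28 (FDR 0.0282). SUFU, which holds GLI factors inactive, had 0.79 (FDR 0.0381), and the receptor PTCH1 had 1.67 (FDR 0.0415). These genes act at different steps, SUFU against GLI activity and SMO for it. PTCH1 measured 11.6 ± 5.43 TPM over the Ewing lines and 3.74 ± 3.66 TPM over the osteosarcoma lines (SD, n = 7 and 6), and its highest osteosarcoma lines were those with the most GLI1, U2OS (8.66 TPM) and SAOS2 (8.19 TPM). The other GLI genes were not called: GLI2 had a log2 fold change of 0.48 (SE 0.54, FDR 0.601) and GLI3 one of -0.29 (SE 0.34, FDR 0.625). EW24 was the lowest Ewing line for GLI1, GLI2 (1.80 TPM), GLI3 (3.22 TPM) and PTCH1 (5.53 TPM). The ligands, named after their values were seen, were low: SHH reached 1 TPM in RDES (2.96 TPM), MHHES1 (1.02 TPM) and HOS-MNNG (3.56 TPM), and IHH and DHH stayed under 1 TPM in the 13 lines. Across the 7 Ewing lines the log2 level of GLI1 had a Pearson r of 0.78 with PTCH1 and 0.87 with GLI2, a description of 7 points that share their libraries.

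FEZF1 (gene ID 389549, chr7:122301303-122310723) encodes a zinc finger repressor of the forebrain and olfactory system. It was present in each Ewing line and close to absent from osteosarcoma. Its Ewing line means ran from 29.3 TPM (A673) through a median of 42.9 TPM (EW3) to 99.5 TPM (SKES1). RDES (31.4 ± 2.49 TPM) overlapped A673 and TC71 (42.6 ± 3.26 TPM) overlapped EW3, and SKES1, EW24 (69.9 ± 0.847 TPM) and MHHES1 (59.9 ± 3.47 TPM) did not overlap their neighbours. The highest osteosarcoma line was U2OS (0.311 ± 0.0395 TPM, 34 counts in 3 libraries), and the level was 0.149 ± 0.0589 TPM in MG63 and 0.148 ± 0.0667 TPM in HOS-MNNG, with 3 counts in G292, 2 in SAOS2 and 0 in KHOS. The log2 fold change was 8.93 (SE 0.97, edgeR FDR 0.000151), and the lowest Ewing line was 94.1-fold above the highest osteosarcoma line.

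FEZF1-AS1 (gene ID 154860, chr7:122303658-122310077), a long noncoding RNA gene on the opposite strand, lies within the span of FEZF1 and over the FEZF1 window shown. It was called higher as well, with a log2 fold change of 7.61 (SE 1.03, edgeR FDR 0.000582). Its line means were 35.5 TPM (RDES) to 122 TPM (SKES1) in Ewing and at most 0.821 TPM (MG63) in osteosarcoma. The library kit keeps the strand, but the sources do not say whether the quantification used it, and without it reads of overlapping exons cannot be told apart. ID2-AS1 (gene ID 100506299, chr2:8670984-8681863), beside ID2, and SOX2-OT (gene ID 347689, chr3:181056680-181742228), which spans SOX2, were also called higher. ID2-AS1 measured 9.50 ± 7.84 TPM over the Ewing lines and 1.24 ± 0.790 TPM over the osteosarcoma lines (log2 fold change 2.79, FDR 0.00686). SOX2-OT was low, at 0.404 ± 0.203 and 0.103 ± 0.0905 TPM (log2 fold change 1.92, FDR 0.0377).

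POU3F1 (gene ID 5453, chr1:38043829-38046793), also called OCT6, encodes a POU domain factor that times the differentiation of Schwann cells. It had the largest log2 fold change of the 10 members, 9.71 (SE 0.89, edgeR FDR 4.57e-05). Its Ewing line means ran from 20.9 TPM (EW24) through a median of 49.0 TPM (SKES1) to 116 TPM (EW3). MHHES1 (70.2 ± 8.18 TPM) overlapped TC71 (65.7 ± 5.91 TPM), and A673 (39.9 ± 2.62 TPM) overlapped RDES (35.99 ± 2.93 TPM). The highest osteosarcoma line was HOS-MNNG, at 0.149, 0.164 and 0.0764 TPM, 161-fold below EW24 by its mean. It overlapped SAOS2 (0.0958 ± 0.0218 TPM), and there were 13 counts in KHOS, 5 in U2OS, 1 in G292 and 0 in MG63.

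ID2 (gene ID 3398, chr2:8682056-8684461) encodes an inhibitor of DNA binding: it has a helix-loop-helix but no basic region, and holds E proteins such as TCF3 and TCF12 away from DNA. Its mean TPM was the highest of the 10 members in each of the 13 lines. The Ewing line means had a lowest value of 120.3 TPM (TC71), a median of 273 TPM (MHHES1) and a highest value of 527 TPM (EW3), and the osteosarcoma means ran from 9.38 TPM (KHOS) through a median of 33.04 TPM to 97.0 TPM (G292). EW3 overlapped RDES (489 ± 64.7 TPM), A673 (276 ± 32.7 TPM) overlapped MHHES1, and EW24 (213 ± 18.5 TPM) overlapped SKES1 (206 ± 21.1 TPM). In the other osteosarcoma lines ID2 was 60.7 ± 11.97 TPM in MG63, 46.7 ± 16.9 TPM in SAOS2, 19.4 ± 1.36 TPM in U2OS and 13.6 ± 1.48 TPM in HOS-MNNG. The TC71 libraries (127, 136 and 98.2 TPM) overlapped those of G292 (65.1, 113 and 112 TPM), although the line means did not cross. The log2 fold change of 2.73 (SE 0.52, edgeR FDR 0.00436) was the smallest among the called members. Among 14 of 15 partner and cofactor genes that were tested, 3 were called higher and 0 lower (all genes: 5.99% and 8.46%), with a median log2 fold change of 0.42. They were the E protein genes TCF3 (1.498, FDR 0.00123) and TCF12 (1.03, FDR 0.0330) and RBBP4 (1.13, FDR 0.00989), a NuRD subunit.

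Of 24 close relatives of these genes 17 were tested, and 1 was called higher and 1 lower in the Ewing lines, near the 5.99% and 8.46% of all genes, with a median log2 fold change of 0.11. The one called higher was POU3F2, the POU domain factor also called BRN2, at 4.49 TPM (A673) to 120.1 TPM (EW3) in Ewing and at most 1.26 TPM (G292) in osteosarcoma. Its log2 fold change was 7.23 (SE 1.17, edgeR FDR 0.00180). The one called lower was ID1, at 59.2 ± 33.7 TPM in Ewing and 216 ± 128 TPM in osteosarcoma, with a log2 fold change of -1.92 (SE 0.45, FDR 0.0133), the opposite direction to ID2. ID3, another inhibitor of DNA binding, measured 323 ± 66.8 and 291.7 ± 245 TPM (log2 fold change 0.06, SE 0.36, FDR 0.938). In each of the 7 Ewing lines BCL11A had a lower mean TPM than BCL11B, and SOX5 a lower one than SOX6, with at most 1.63 TPM of BCL11A (SKES1) and 2.18 TPM of SOX5 (A673). In osteosarcoma BCL11A (1.28 ± 1.70 TPM) had a higher mean than BCL11B (0.360 ± 0.752 TPM), and SOX5 (0.572 ± 0.586 TPM) stood beside SOX6 (0.472 ± 0.604 TPM), each gap smaller than the SD of the relative. SOX13, named after its values were seen, measured 4.92 ± 4.67 TPM in Ewing and 9.15 ± 2.44 TPM in osteosarcoma (log2 fold change -1.11, FDR 0.272). BCL11A had a log2 fold change of -1.64 (SE 1.501, FDR 0.507) and SOX5 one of 0.11 (SE 0.73, FDR 0.940). PAX3, the nearest relative of PAX7, measured 24.2 ± 16 TPM in Ewing and 3.41 ± 3.12 TPM in osteosarcoma, and its line means did not overlap. PAX3 had a log2 fold change of 2.75 (SE 1.11) that was not called (FDR 0.114).

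**Figure D3:**
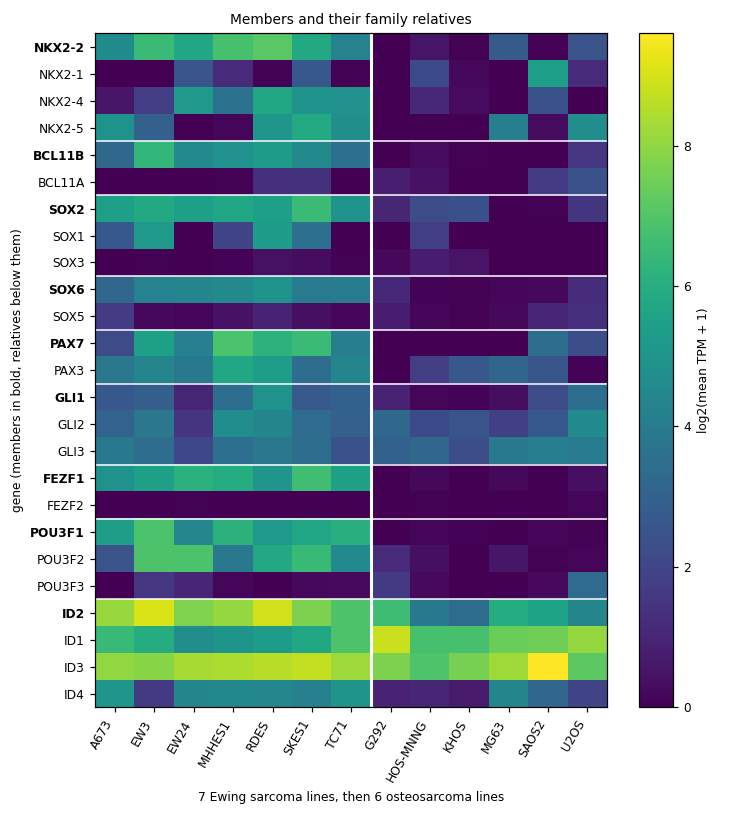
Heat map of log2(mean TPM + 1) of members and their relatives in 13 lines. POU3F2 and PAX3 are high in the Ewing lines beside POU3F1 and PAX7, BCL11A and SOX5 are below BCL11B and SOX6 in the Ewing lines, and ID1 is higher in most osteosarcoma lines.

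Of 20 other genes known to be activated by EWS-FLI1, all tested, 15 were called higher and 0 lower, where 5.99% and 8.46% of all genes were, with a median log2 fold change of 6.37. That list was drawn up for its known direction in Ewing sarcoma, which is therefore not independent evidence. The 5 with the smallest FDR were PRKCB (11.998), LIPI (9.06), GRP (12.24), LOXHD1 (11.94) and IL1RAP (3.84), with edgeR FDR values from 2.39e-05 to 0.000554. Of 15 transcription factors of mesenchyme and osteoblasts 13 were tested, and 0 were called higher and 6 lower against the same shares of all genes, with a median of -1.72. The 5 with the smallest FDR were TBX15 (-5.76, FDR 0.000230), TWIST2 (-5.77, FDR 0.000858), RUNX2 (-5.11, FDR 0.00576), SNAI2 (-3.10, FDR 0.0137) and ZEB1 (-2.99, FDR 0.0172). RUNX2, which sets the osteoblast lineage, was 187 TPM in SAOS2 but 0.390 TPM in MG63, below the 6.77 TPM of SKES1.

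Within the Ewing lines the members did not follow 1 order. Across the 7 lines the log2 level of NKX2-2 had a Pearson r of 0.83 with BCL11B, 0.80 with SOX6 and 0.78 with PAX7. NR0B1 had an r of -0.69 with GLI1 and -0.58 with NKX2-2, and RDES and MHHES1 were the lowest Ewing lines in NR0B1 and the highest in the other 2 genes. These r values describe 7 points from shared libraries. Over all 13 lines, pairs of members also share the step between the tumour types. The genes most like each member were sought over the 13 lines among 15707 genes with at least 5 TPM in their highest line. NR0B1 was most like CHGA (r 0.918) and IGF1 (0.899), NKX2-2 most like SYCP2L (0.965) and CCDC74A (0.962), and BCL11B most like NLGN4X (0.982) and CCDC74A (0.973). CCDC74A thus stood beside 2 members that also resembled each other. SOX2 was most like SLAIN1 (0.956) and FEZF1 (0.954), SOX6 most like PRRT4 (0.9801) and SELENOOLP (0.979), and PAX7 most like ZP3 (0.959) and ARID1A (0.955). SOX2 and SLAIN1 had an r of 0.10 within the 7 Ewing lines. GLI1 was most like EPB41L5 (0.935) and FAM161A (0.921), and ID2 most like FECH (0.9598) and SAP30 (0.959). POU3F1 was most like UGT3A2 (0.991) and PRKCB (0.989), and FEZF1 most like its antisense gene FEZF1-AS1 (0.996, or 0.92 within the Ewing lines) and PTGER3 (0.990).

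**Figure D4:**
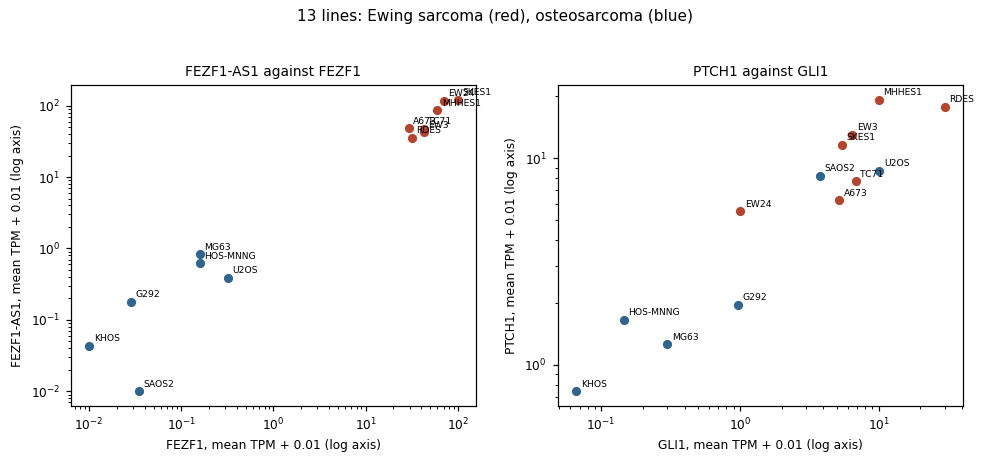
Mean TPM per line, both axes log after adding 0.01 TPM, with 1 point for each of 13 lines. FEZF1-AS1 and FEZF1 separate the tumour types, at 29.3 TPM of FEZF1 or more in Ewing and at most 0.311 TPM in osteosarcoma, whereas for GLI1 and PTCH1 the osteosarcoma lines U2OS and SAOS2 lie among the Ewing lines.

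Shares of RefSeq transcripts were estimates of the quantification and varied between replicates for some genes. PAX7 was mostly NM_001135254.2, at 88.5% ± 3.52 of its TPM (SD, n = 7 Ewing lines), with 84.2% in both SAOS2 and U2OS. The leading SOX6 transcript, NM_033326.3, held 39.03% ± 4.64. NKX2-2 differed between lines: the predicted transcript XM_047440152.1 held 69.1% ± 6.07 (SD, n = 3) of NKX2-2 in RDES and 62.2% ± 8.04 in EW3. It held 41.6% ± 9.34 in MHHES1 and means from 23.05% to 25.9% in A673, EW24, SKES1 and TC71. The 3 lines with the largest shares were those with the most NKX2-2. Replicates of GLI1 differed too much to order the lines, for example 46.4% ± 40.2 for NM_005269.3 in EW24. NR0B1, SOX2, POU3F1 and ID2 had 1 transcript each.

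The second comparison asked how the 10 genes stood when the KCNN1 hairpin was induced in A673. KCNN1, the targeted gene, measured 31.97, 38.9 and 37.2 TPM in parental A673, 37.8, 35.3 and 17.99 TPM in uninduced sh908 cells and 10.2, 13.7 and 7.75 TPM in induced cells. Its induced libraries were at 26.9%, 38.9% and 43.1% of the uninduced library of the same number, and none overlapped the uninduced ones. Of the 10 members 0 were called by edgeR, where 0.0% of 14252 genes were called in either direction (94 genes at an unadjusted p under 0.05, 2 called by DESeq2 and 0 by limma voom). With the replicate number as a block, 0.512% of genes were called and again 0 members. Replicates of the same number deviated together, mainly number 3 against 1 and 2, so values by pair are given.

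FEZF1 was at a similar ratio in the 3 pairs of same-numbered libraries. It was 15.7, 12.6 and 11.2 TPM in uninduced and 20.7, 16.6 and 14.6 TPM in induced libraries, or 131%, 132% and 131% by pair. Deviations of numbers 1 and 2 correlated at 0.683 and 0.582 within and at 0.608 and 0.517 across numbers. These 2 numbers are thus poorly told apart, and the likeness of the ratios and the blocked SE rest on that pairing. The blocked log2 difference was 0.41 (SE 0.10, edgeR FDR 0.136) and was not called. Without the block, leaving out 1 library gave 0.13 (without induced replicate 1) to 0.65 (without uninduced replicate 1), and 0 of these fits called the gene. FEZF1-AS1 was at 126%, 116% and 156% by pair. BCL11B (87.0%, 81.4% and 64.4%), SOX2 (89.2%, 92.0% and 85.8%), GLI1 (92.0%, 95.0% and 87.2%) and ID2 (94.4%, 90.9% and 74.2%) were below 100% in 3 of 3 pairs. A same direction in 3 pairs was thus found in 5 of the 10 members, where 34.9% of all genes showed one. For none of the 10 members were the 3 induced and 3 uninduced libraries without overlap, where 3.65% of all genes were. The blocked log2 difference of BCL11B was -0.31 (SE 0.12, FDR 0.294) and that of ID2 -0.19 (SE 0.10, FDR 0.425). With 1 library left out and no block, BCL11B was -0.47 (without uninduced replicate 2) to -0.09 (without uninduced replicate 3).

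NR0B1 was 45.6, 39.3 and 28.3 TPM in uninduced and 68.8, 67.6 and 24.1 TPM in induced libraries, so replicates 1 and 2 were higher and replicate 3 was lower with doxycycline (151%, 172% and 85.0% by pair). Without replicate 3 of both groups its log2 difference was 0.70 (edgeR FDR 0.0416), and it was the one member called, with 28 genes called in all. With all 6 libraries it was 0.58 (SE 0.58), or 0.43 with the block (SE 0.18, FDR 0.377). Leaving out 1 library without the block gave 0.27 (without induced replicate 1) to 0.996 (without induced replicate 3). NKX2-2 (107%, 111% and 68.4%), SOX6 (86.3%, 104% and 96.8%), PAX7 (91.4%, 83.7% and 102%) and POU3F1 (83.9%, 103% and 85.2%) went in different directions between pairs.

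**Figure D5:**
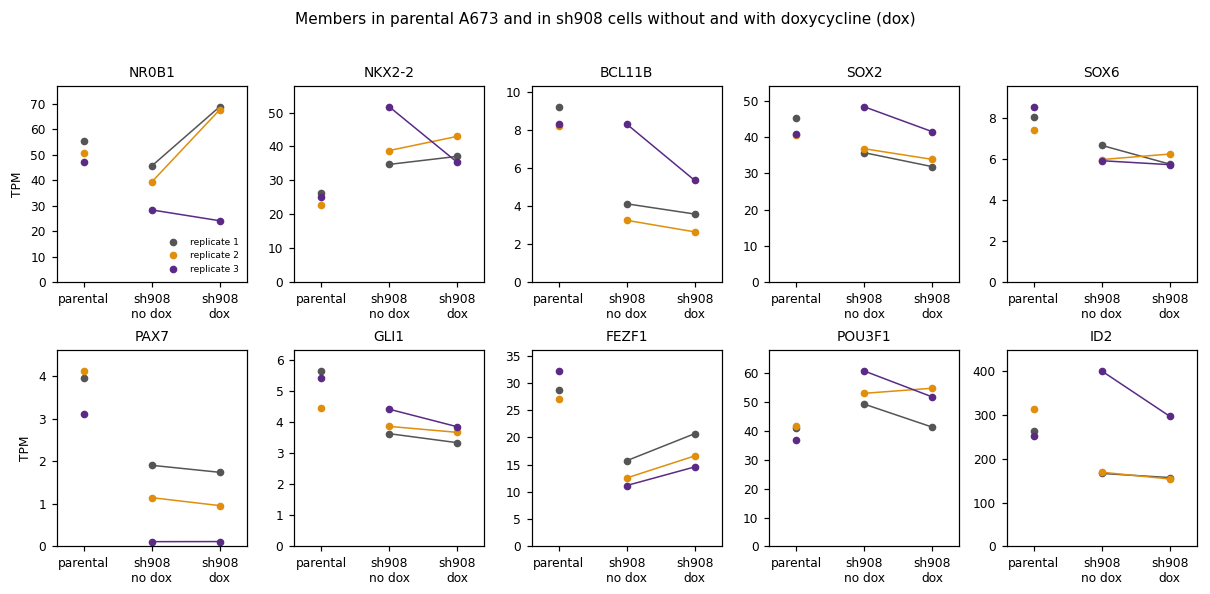
TPM of the 10 genes in parental A673, uninduced and induced sh908 libraries (3 each), with lines joining sh908 libraries of the same replicate number. FEZF1 is higher in each induced library of a pair, NR0B1 is higher in 2 of 3 pairs, and replicate 3 stands apart for ID2, BCL11B and PAX7.

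Replicate 3 of the sh908 cells stood apart for several members, with and without doxycycline. PAX7 was 1.90, 1.14 and 0.110 TPM in uninduced and 1.74, 0.958 and 0.112 TPM in induced libraries, so replicate 3 was the lowest in both groups. ID2 was 166, 169 and 400.1 TPM in uninduced and 157, 154 and 297 TPM in induced libraries, and BCL11B 4.13, 3.26 and 8.33 and 3.59, 2.65 and 5.36 TPM, with replicate 3 the highest in both groups. What a replicate number stands for is left out of the labels.

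The third comparison set uninduced sh908 cells against parental A673 and shares the uninduced libraries with the second. NKX2-2 and POU3F1 were called higher, 2 of the 10 members, where 8.71% of 15778 genes were called higher, and 0 members were called lower, where 6.42% of genes were. NKX2-2 measured 26.3, 22.8 and 25.1 TPM in parental and 34.7, 38.8 and 51.7 TPM in uninduced sh908 cells, without overlap (log2 fold change 1.21, SE 0.13, edgeR FDR 0.00621). POU3F1 measured 41.1, 41.7 and 36.9 TPM in parental and 49.3, 53.1 and 60.9 TPM in uninduced cells, also without overlap (0.91, SE 0.16, FDR 0.0168). Both genes were higher in each uninduced library than in any parental one. With the replicate number as a block NKX2-2 stayed called (edgeR FDR 0.0429) and POU3F1 was not called (0.91, FDR 0.0516). FEZF1 measured 28.6, 27.03 and 32.2 TPM in parental and 15.7, 12.6 and 11.2 TPM in uninduced cells, and its log2 fold change of -0.64 (SE 0.27) was not called (FDR 0.151), while FEZF1-AS1 was called lower (-0.77, SE 0.15, FDR 0.0234). In the fit with the replicate block FEZF1-AS1 was not called either. PAX7 had less TPM in each sh908 library than in any parental one, and its log2 fold change of -1.21 (SE 0.86) was not called (FDR 0.367). Of 13 relatives tested 1 was called higher and 3 lower, beside the 8.71% and 6.42% of all genes. With the replicate number as a block 0 of these 13 were called, where 319 of 15778 genes were. BCL11A was called higher (5.68, SE 1.004, FDR 0.0183), from a mean of 0.0141 to 0.658 TPM. GLI2 (-1.24, FDR 0.0149), GLI3 (-0.75, FDR 0.0231) and ID4 (-0.80, FDR 0.0319) were called lower, while GLI1 had a log2 fold change of 0.06 (SE 0.20, FDR 0.870).

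The number of calls moved with single libraries over all genes. Without any 1 of the parental libraries 0 members and 2 to 8 genes in all were called, and without uninduced replicate 2 the counts were 1 and 266. The fold changes of NKX2-2 and POU3F1 moved little, at 1.15 to 1.25 and 0.82 to 1.03 with libraries left out. Without uninduced replicate 3 the count of members was 8, with 10202 genes called in all. In that fit the log2 fold change of PAX7 was -0.63 (edgeR FDR 0.0221), of FEZF1 -0.37 (0.0116) and of BCL11B -0.57 (0.00118), against -0.35 with all 6 libraries for BCL11B. NR0B1 was 0.42 (FDR 0.00288), SOX2 0.46 (0.000593) and SOX6 0.32 (0.0115), against 0.11, 0.39 and 0.11. PAX7 and FEZF1 were thus nearer to 0 without this library but past the threshold. Without uninduced replicate 1 they were -1.97 and -0.87 and not called (FDR 0.232 and 0.0998). Without replicate 3 of both groups PAX7 was -0.76 (FDR 0.0110) and FEZF1 -0.32 (0.0507). The scale also mattered: over 11168 genes the median log2 ratio of TPM was -0.41 and the median edgeR log2 fold change 0.08. The 10 most abundant genes held 12.1% to 18.02% of TPM in the uninduced libraries and 7.77% to 8.65% in the parental ones, led in each of these 6 libraries by the short RNA gene MIR12136, and the part of this in the results was not tested. On TPM, NR0B1 (-0.43), SOX2 (-0.06), SOX6 (-0.37), GLI1 (-0.38) and ID2 (-0.17) had log2 ratios below 0, whereas their edgeR values were above 0. NKX2-2 (0.75) and POU3F1 (0.45) were above 0 on both scales, and BCL11B (-0.72), PAX7 (-1.83) and FEZF1 (-1.15) below 0 on both.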

How the data were processed

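RNA of 45 libraries was quantified by transcript, with fastp 0.19.5 and kallisto 0.46.2 and the builds hg38 and GRCh38.p14 named in the submitters' processing notes. Per the file headers, the authors' tables hold estimated counts and TPM (scaled for transcript length and depth) per transcript, with other values such as the effective length that the authors' quantification gave. How the counting treated strand is not given in these notes.

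Transcripts were assigned to genes by RefSeq accession (GRCh38.p14): 169966 of 177816 matched (95.6%), and the 7850 without a gene held 0.915% to 1.6% of the counts of a library and stayed out. Both measures were added up by gene. Counts were rounded and tested with edgeR 4.0.16 (R 4.3.3; filterByExpr, TMM, robust quasi-likelihood), with the 3 libraries of a line summed for the comparison of lines, 7 against 6, and 3 against 3 libraries for sh908. Calls needed a Benjamini-Hochberg FDR under 0.05 over all genes tested. The SE was derived from the F statistic. DESeq2 1.42.0, limma 3.58.1 voom, other size factors, no filter, and left-out lines or libraries were alternatives. Log2 levels are log2(TPM + 1). Scripts were tested on simulated data. Tables and figures used Python 3.11.15, numpy 2.4.6, pandas 2.3.3 and matplotlib 3.10.9. Neighbouring lines in an order overlap where their library ranges do.

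The members and lists were chosen with earlier results of these data known, and 1 gene was left out of the hedgehog list and is not reported here. Named genes are the 10 members, the 2 genes most like each, up to 5 called genes of a list by FDR, and GLI2, GLI3, PTCH1, SOX5, BCL11A, ID1, ID3 and PAX3. KCNN1 (the hairpin's target), the tumour markers CD99, ERG, FLI1, SP7 and IBSP, the antisense genes, and, after their values were seen, SOX13, SHH, IHH and DHH are named besides. Deviations from group means of libraries with the same number correlated at 0.683, 0.582 and 0.881 between induced and uninduced sh908 cells (all above 0.1, so the numbers pair them) and at 0.0455, 0.0866 and 0.250 between uninduced and parental cells (not paired). Induced and uninduced libraries numbered 1 and 2 also correlated across numbers (0.608 and 0.517), so these 2 numbers are poorly told apart and replicate 3 carries the pattern. The pairing rests on the data, not on the labels.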

Additional observations from a re-analysis of the deposited data

Results flagged for a closer look

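A line lay far from the others of its tumour type in 5 of 20 sets of lines (10 genes in 2 tumour types), by Dixon's test on the gap to the nearest line over the whole range. Chance alone marks about 1 in 20 such sets if values are normally distributed. The test was run on TPM means, which were skewed, with osteosarcoma lines at 0 for some genes. Each of the 5 far lines was the highest of its set. The 5 of 20 therefore cannot be read as an excess over chance. U2OS was the far line in 3 of the 5. NR0B1 in U2OS (2.45 TPM) lay above the next osteosarcoma line by 0.995 of the range of all 6 osteosarcoma lines. BCL11B in U2OS (1.89 TPM) lay above the next osteosarcoma line by 0.889 of the range, and GLI1 in U2OS (10.1 TPM) by 0.634. BCL11B in EW3 (81.7 TPM) lay above the next Ewing line by 0.589 of the range, and GLI1 in RDES (29.9 TPM) by 0.689. The sets share lines and libraries, and no cause was tested.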

How the results depend on the processing

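Between the tumour types, the direction and side of the threshold held in 226 repeats of the 10 members' values over 23 alternatives. In 4 others, PAX7 (DESeq2 and both limma voom fits) and GLI1 (voom with the line as a random effect) became called, so 9 or 10 members were called, and edgeR called 8 whichever line or replicate was left out. DESeq2 called 5406 genes in all, against 3175. For induction of sh908 142 repeats held, 16 changed sign and 2 became called. Without replicate 3 of both groups 1 member, NR0B1, was called, with or without the replicate block, and NKX2-2 turned to 0.15 (0.15 with the block). In the fit of all 45 libraries NKX2-2 was 0.000205. With 1 library left out, log2 differences that changed sign ranged as follows: NKX2-2 -0.19 to 0.18, SOX6 -0.22 to 0.15, PAX7 -1.08 to 0.40, GLI1 -0.20 to 0.0373, POU3F1 -0.28 to 0.0223, ID2 -0.36 to 0.0435. SOX6 was 0.0424 without replicate 1 of both groups with the block, an alternative added after seeing the data. The replicate block changed no other call there (0 members, 73 genes called instead of 0, with 2 by DESeq2, 12 in the fit of all 45 libraries, 7 to 10 in the block without replicate 1 or 2 of both groups, and 28 or 167 without replicate 3 of both). For uninduced against parental cells 93 repeats held, 12 became called, 8 lost the call and 7 changed sign. With the replicate block 1 member, NKX2-2, was called and POU3F1 lost its call (319 genes instead of 2388), and not every library correlated best with its own number. DESeq2 called 3 members and 4169 genes. Without single libraries 0 to 8 members and 2 to 10202 genes were called, and without replicate 3 of both groups 7 members and 8986 genes. NR0B1 was -0.0163 with limma voom, and ID2 was -0.0952 without replicate 3 of both groups. With 1 library left out, the ranges that changed sign were NR0B1 -0.12 to 0.42, SOX6 -0.0369 to 0.32, GLI1 -0.0317 to 0.19, ID2 -0.0206 to 0.35, and without replicate 3 of both groups SOX6 was 0.36 and GLI1 0.21. The causes of these changes were not tested. Levels of a gene in lines with 0 to 3 counts cannot be ordered at this depth.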
